A study of Mus musculus with 6 samples.

Results

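The levels of 10 genes that the epithelial cells of the lung share were followed in lungs taken whole from E18.5 mouse embryos, near the end of gestation. The genes were Epcam, Cdh1, Krt8, Krt18, Krt19, Elf3, Grhl2, Esrp1, Esrp2 and Spint2, taken by symbol from the 24521 genes of the deposited normalized table and joined to the raw counts by their Ensembl identifiers. All 10 were found, and all 10 were among the 19042 genes with enough reads to be tested. They were listed as genes common to all lung epithelia, by which the epithelial share of the RNA can be judged. The study compared 3 wild-type lungs with 3 lungs labelled Mll3FDC/FDC, homozygous for a knockout allele of Mll3 (gene symbol Kmt2c), a histone H3 lysine 4 methyltransferase. The labels name no Cre driver, treatment or other allele for either group, and they call the samples triplicates without saying whether each came from a separate embryo. A p-value therefore speaks of the spread between the 3 samples of a group, part of which may be technical. Replicate numbers were given in accession order and serve only as names.

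An epithelial sheet is held together by E-cadherin, the product of Cdh1, which binds the same molecule on neighbouring cells, and by the adhesion protein EpCAM, which works beside the claudins of tight junctions. Inside the cell, keratins 8 and 18 pair to form the intermediate filaments of simple epithelia, and keratin 19 joins them in many epithelia. The transcription factors Grhl2 and Elf3, the splicing factors Esrp1 and Esrp2 and the protease inhibitor Spint2 maintain this state, and loss of such genes together is a usual sign of fewer epithelial cells or of epithelial to mesenchymal transition. The keratins are also made by the pleural mesothelium, which is not an epithelium of the airways or alveoli.

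The libraries held 20158689 to 23305306 counted reads. Values are CPM, read counts scaled to a common library total, after TMM scaling, which corrects for differences in RNA composition. Kmt2c, the targeted gene, was read first and reached 162, 179 and 162 CPM in wild-type lungs and 143, 171 and 159 CPM in knockout lungs (log2 fold change −0.09 ± 0.08 SE, adjusted p = 0.74 in edgeR's quasi-likelihood test). Which stretch of Kmt2c the allele lacks is not given in the labels, so these whole-gene counts cannot check the genotype. Wild type 1 and knockout 3 stood apart in squamous keratins: wild type 1 held 287 CPM of Krt4 and 224 CPM of Krt13 where the other 5 libraries held at most 1.66 CPM of either, and knockout 3 held 128 CPM of Krt1 where the others held at most 0.44. Knockout 3 also held 59951 Xist reads, where the other 5 libraries held 6 to 27. Xist marks female sex, so knockout 3 differed in sex from the other 5 libraries. It was therefore no technical repeat of knockouts 1 and 2. A part of sex in the differences was not tested. Some results that set the genotypes apart are also given without wild type 1 and knockout 3. These are Epcam, Krt8, Krt18, Krt19, the sum of these keratins, and alveolar type 1 genes relative to the total of the followed genes. The other genes, sums and ratios without overlap, among them Krt7, Krt80, Fgfr2, Msln and Cldn6, are given with all libraries only. Lung identity was plain in every library, with 21490 to 27240 CPM summed over 12 genes of alveolar type 2 cells, the makers of surfactant.

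Upstream stretches of members are shown because Krt8 and Krt18 differed in the same direction, Epcam in the other, and Spint2 in neither. RefSeq windows on GRCm38.p6, from 250 bases before to 50 bases after a gene's start, were matched for 5 of the 10 genes (Epcam, Krt8, Krt18, Elf3 and Spint2). GRCm38 and mm10, the build of the counts, name the same assembly, and 99.98% of 20991 protein-coding genes overlapped between both sets of coordinates. Each stretch below is written 5′ to 3′ and ends before the gene as the count table defines it. Capitals mark 2 motifs searched on both strands: CAGGTG, the E-box letters that Snail and Zeb repressors can bind, and GGGCGG, the GC box.
Epcam, chr17:87635729-87635978, plus strand: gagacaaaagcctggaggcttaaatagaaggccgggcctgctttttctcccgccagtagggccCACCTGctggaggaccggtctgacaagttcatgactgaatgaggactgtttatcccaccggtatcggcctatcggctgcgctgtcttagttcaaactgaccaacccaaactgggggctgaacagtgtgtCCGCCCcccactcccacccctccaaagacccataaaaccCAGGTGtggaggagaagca
Krt18, chr15:102027966-102028179, plus strand: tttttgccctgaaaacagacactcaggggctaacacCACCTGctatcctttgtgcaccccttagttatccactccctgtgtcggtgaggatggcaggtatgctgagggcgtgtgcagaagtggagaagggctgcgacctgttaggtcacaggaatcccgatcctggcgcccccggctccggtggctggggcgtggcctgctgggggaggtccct
Krt8, chr15:102004483-102004592, minus strand: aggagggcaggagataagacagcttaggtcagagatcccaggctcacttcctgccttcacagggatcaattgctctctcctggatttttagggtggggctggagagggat
Spint2, chr7:29281978-29282227, minus strand: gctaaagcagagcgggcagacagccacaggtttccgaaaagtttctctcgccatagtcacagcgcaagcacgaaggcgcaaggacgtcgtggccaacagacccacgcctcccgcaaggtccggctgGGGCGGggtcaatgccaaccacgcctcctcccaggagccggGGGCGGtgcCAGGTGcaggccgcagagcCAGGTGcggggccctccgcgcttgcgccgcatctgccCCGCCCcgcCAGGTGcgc
The E-box letters stood in 5 of the 5 matched windows, beside 20.2% of all 32851 RefSeq windows of the same length. Counted from the RefSeq start, Epcam had them at −187 and −19 bases, Krt18 at −214, Krt8 at −111, Elf3 at −140, and Spint2 at −74, −55 and −9. That start lies 36 bases inside the gene as counted for Krt18, 140 for Krt8 and 96 for Elf3. Positions of these 3 are therefore not distances from the end of a stretch cut at the counted gene. The Krt8 match lies inside the gene as the count table draws it, so it is absent from the printed stretch. GC boxes stood in 2 of the 5 windows (Epcam once, Spint2 at 3 places), beside 35.7% of all windows. The letters TATAAA stood in the Krt8 window alone among the 5, with overlapping matches on both strands, beside 13.6% of all windows. The grainyhead letters AACCGGTT, the AP-1 letters TGANTCA and the ETS letters CCGGAAG stood in 0 of the 5 windows, beside 0.146%, 7.81% and 8.86% of all. These matches describe letters in short windows and were set against no binding data.

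Across all 10 genes the knockout lungs held no general shift. The median log2 fold change of the members was −0.01, beside 0.01 over all 19042 genes, and its sign turned to 0.03 with library size only as the scale and ran from −0.04 to 0.07 as each library was left out. The single genes spread to both sides, from −0.41 for Krt19 to 0.37 for Epcam, with 6 point estimates below 0 and 4 above. By the edgeR test with Benjamini-Hochberg adjustment over all genes, 0 of the 10 passed an adjusted p of 0.05, a threshold that 0.368% of all genes passed. At an unadjusted p under 0.05, 4 of the 10 stood (Krt8, Krt18, Krt19 and Epcam), beside 10.7% of all genes. Both genotypes' libraries did not overlap for the same 4: Epcam was higher in all 3 knockout lungs, as were 8.6% of all genes, and the 3 keratins were lower in all 3, as were 8.45% of all genes.

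The call on these 4 genes depended on the tool and the filter. DESeq2 on the same counts passed all 4, with Epcam higher (0.365% of all genes passed as higher) and Krt8, Krt18 and Krt19 lower (1.76% passed as lower). edgeR without a filter on low counts passed the same 4 genes, where 0.298% of genes passed as higher and 0.982% as lower. With the number prefix of the sample titles as a second term, Krt18 and Krt19 passed as lower, beside 2.54% of all genes, and Epcam did not. In limma voom and in limma on the deposited normalized values, 0 of the 10 passed. The other 6 genes (Cdh1, Elf3, Grhl2, Esrp1, Esrp2 and Spint2) passed in none of these fits. In bulk RNA, fewer cells of a type and less RNA of a gene per cell cannot be told apart, and this holds for each level below.

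**Figure D1:**
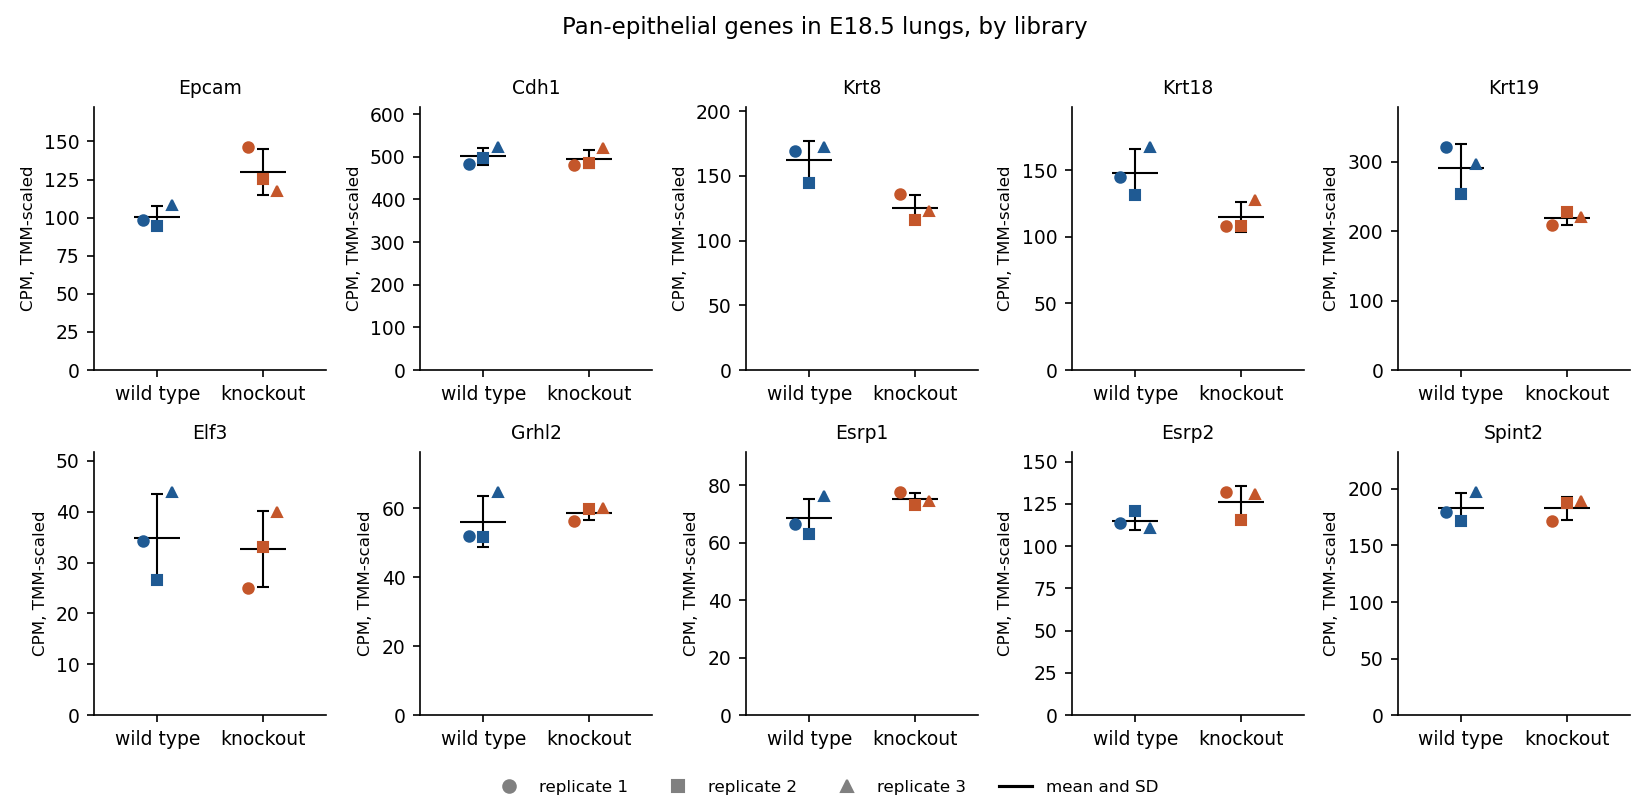
Level of each of the 10 genes in each library, in TMM-scaled CPM on axes that start at 0; circles, squares and triangles are replicates 1, 2 and 3, and black bars give the mean and SD of 3 libraries. The knockout points lie above the wild-type points for Epcam and below them for Krt8, Krt18 and Krt19, and the 2 genotypes overlap for the other 6 genes.

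Among the adhesion genes, Cdh1 (ENSMUSG00000000303, mm10 chromosome 8, 106603351 to 106670246, plus strand) was the most abundant member in CPM. It reached 482, 497 and 523 CPM in wild-type lungs and 481, 487 and 520 CPM in knockout lungs. The ranges lay nearly on top of each other, with a log2 fold change of −0.02 ± 0.07 (SE, adjusted p = 0.97). Cdh1 is the classical mark of the epithelial state, and it is the target that Snail and Zeb factors repress.

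Epcam (ENSMUSG00000045394, mm10 chromosome 17, 87635979 to 87651129, plus strand) was 98.6, 94.5 and 108 CPM in wild-type lungs and 146, 126 and 118 CPM in knockout lungs. All 3 knockout lungs were above the highest wild-type lung, knockout 1 by far the most. The means were 101 ± 7.16 and 130 ± 14.8 CPM (SD, n = 3), a log2 fold change of 0.37 ± 0.09 (SE, edgeR adjusted p = 0.13, DESeq2 adjusted p = 0.021). Leaving out 1 library at a time gave 0.27 to 0.43, and leaving out wild type 1 and knockout 3 gave 0.42 (edgeR adjusted p = 0.35). Within the title prefix shared by wild types 1 and 2 and knockout 1, the log2 ratio was 0.60, and within the one shared by wild type 3 and knockouts 2 and 3 it was 0.17. Every knockout lung lay above every wild-type lung, so the direction was bound to be the same under both prefixes. The difference in size was not tested. The same limit holds below for each gene or sum without overlap.

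Relative to Cdh1, Epcam went from 0.205, 0.190 and 0.207 in wild-type lungs to 0.304, 0.258 and 0.227 in knockout lungs, with no overlap. Of the 2 claudins known to bind EpCAM, Cldn7 was 37.2 ± 2.06 (wild type) and 41.0 ± 1.36 CPM (knockout; log2 fold change 0.14, edgeR adjusted p = 0.56) and Cldn1 was 22.5 ± 2.81 and 16.3 ± 4.38 CPM (−0.46, adjusted p = 0.41). Neither passed in edgeR or DESeq2.

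Cytoplasmic proteins tie cadherins to actin and to keratin. Of 6 such genes tested (Ctnna1, Ctnnb1, Ctnnd1, Jup, Vcl and Afdn), 0 passed in edgeR, DESeq2 or voom. Beside 10.7% of all genes, 1 of the 6 had an unadjusted p under 0.05. All 6 point estimates were below 0, from −0.22 to −0.00 on the log2 scale, with a median of −0.09. That 1 was Jup, plakoglobin of adherens junctions and desmosomes, at 313 ± 19.8 (wild type) and 268 ± 23.3 CPM (knockout; −0.22, adjusted p = 0.35).

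The keratins formed the lower end of the list. Krt19 (ENSMUSG00000020911, mm10 chromosome 11, 100140810 to 100148665, minus strand) was 322, 254 and 298 CPM in wild-type lungs and 208, 228 and 221 CPM in knockout lungs. No knockout lung reached the lowest wild-type lung. The knockout level was 0.753 times that of wild type (log2 fold change −0.41 ± 0.09 SE, edgeR adjusted p = 0.11, DESeq2 adjusted p = 0.0014). It was −0.47 and −0.41 within the 2 title prefixes and −0.34 without wild type 1 and knockout 3.

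Krt8 (ENSMUSG00000049382, mm10 chromosome 15, 101996698 to 102004482, minus strand) was 169, 145 and 172 CPM in wild-type lungs and 136, 116 and 123 CPM in knockout lungs. Its partner Krt18 (ENSMUSG00000023043, mm10 chromosome 15, 102028180 to 102032027, plus strand) was 145, 131 and 167 CPM in wild-type lungs and 108, 108 and 127 CPM in knockout lungs. Both genes were lower in each knockout lung than in each wild-type lung. The log2 fold changes were −0.37 ± 0.08 for Krt8 (SE, edgeR adjusted p = 0.11, DESeq2 adjusted p = 0.0091) and −0.37 ± 0.10 for Krt18 (edgeR adjusted p = 0.20, DESeq2 adjusted p = 0.034). Without wild type 1 and knockout 3 they were −0.33 and −0.47. Within the 2 title prefixes they were −0.21 and −0.53 for Krt8, and −0.35 and −0.51 for Krt18. The 2 genes lie 23697 bases apart on opposite strands. The ratio of Krt8 to Krt18 in CPM was 1.17, 1.10 and 1.03 in wild-type lungs and 1.26, 1.08 and 0.963 in knockout lungs, so that its range was wider than any offset between the genotypes.

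Reads of Krt8 have a near-identical copy to compete with. The pseudogene Krt8-ps on chromosome 7 carried 0.342 to 0.349 times the CPM of Krt8 in wild-type lungs and 0.351 to 0.355 times in knockout lungs, a nearly fixed ratio, so how the reads divide between the 2 loci is uncertain. With the counts of both loci summed, the log2 fold change was −0.37 (edgeR adjusted p = 0.13), against −0.37 for Krt8 alone.

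The 3 keratins summed to 636, 530 and 637 CPM in wild-type lungs and to 453, 452 and 471 CPM in knockout lungs, 0.763 times the wild-type mean with no overlap. The log2 ratio of the means was −0.39; it was −0.37 without wild type 1 and knockout 3, and −0.36 and −0.47 within the 2 title prefixes. As a share of the 10 genes' total, they made up 38.2%, 34.1% and 36.2% in wild-type lungs and 29.4%, 29.5% and 29.4% in knockout lungs. The contrast within the list was widest between its extremes, with 3.26, 2.69 and 2.74 CPM of Krt19 for each CPM of Epcam in wild-type lungs and 1.42, 1.82 and 1.88 in knockout lungs.

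Of 9 further keratin genes tested, 0 passed in edgeR. At an unadjusted p under 0.05 stood 2 of the 9, beside 10.7% of all genes. DESeq2 gave 5 of them an adjusted p and called 2 lower, beside 1.76% of all genes. The 2 called lower were Krt7, a simple-epithelial keratin, and Krt80. Krt7 was 334, 303 and 331 CPM in wild-type lungs and 259, 242 and 261 CPM in knockout lungs, again without overlap (log2 fold change −0.35 ± 0.07 SE, edgeR adjusted p = 0.084). Krt80 was 28.1 ± 6.89 and 11.5 ± 3.05 CPM (−1.29, edgeR adjusted p = 0.12). Krt7 kept step with the member keratins: their sum was 1.90, 1.75 and 1.93 times Krt7 in wild-type lungs and 1.75, 1.87 and 1.81 times in knockout lungs. The next by p were Krt13 and Krt4, whose reads came almost wholly from wild type 1, so that their fitted differences of −6.56 and −6.55 (edgeR adjusted p = 0.56 and 0.57) describe that 1 library.

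Genes of other cell types differed alongside the keratins. In the list of 13 genes of alveolar type 1 cells, the thin gas-exchange cells, 3 fell by the edgeR test (Aqp5, Pdpn and Clic5). Of all genes, 0.368% passed that test in either direction. DESeq2 called 12 of the 13 lower, beside 1.76% of all genes. In all 3 knockout lungs 12 of the 13 were lower, as were 8.45% of all genes. The list summed to 6707 to 7330 CPM in wild-type and 4663 to 5626 CPM in knockout lungs. For each 100 CPM of this list, the 3 keratins held 8.93, 7.90 and 8.70 CPM in wild-type lungs and 9.72, 8.96 and 8.38 CPM in knockout lungs, and here the genotypes overlapped. Msln, the mesothelin gene of the pleural mesothelium, was 379, 323 and 390 CPM in wild-type lungs and 155, 200 and 235 CPM in knockout lungs (log2 fold change −0.89, edgeR adjusted p = 0.061). Of the 7 mesothelial genes, 0 passed in edgeR. Msln alone was under 0.05 before adjustment (10.7% of all genes) and lower in DESeq2 (1.76% of all genes). The list summed to 518 to 633 CPM and 346 to 501 CPM, but without Msln to 195 to 254 CPM and 170 to 300 CPM, with overlap. After Msln the lowest p were those of Upk1b (41.2 ± 11.3 in wild type and 30.9 ± 9.13 CPM in knockout, log2 fold change −0.41), Wt1 (0.32) and Lrrn4 (−0.12), with edgeR adjusted p of 0.66 to 0.94. The squamous list of 8 genes gave no common direction: it summed to 623, 2.57 and 3.39 CPM in wild-type lungs and 2.68, 7.19 and 138 CPM in knockout lungs. The part of type 1 or mesothelial cells in the keratin levels was not tested.

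Among the transcription factors, Grhl2 (ENSMUSG00000022286, mm10 chromosome 15, 37233036 to 37363569, plus strand), a grainyhead factor that sustains E-cadherin and claudin genes, was 52.1, 51.6 and 64.7 CPM in wild-type lungs and 56.2, 59.7 and 60.1 CPM in knockout lungs. The knockout values lay inside the wild-type range (log2 fold change 0.06 ± 0.09 SE, adjusted p = 0.86). Elf3 (ENSMUSG00000003051, mm10 chromosome 1, 135253575 to 135258568, minus strand), an ETS factor of epithelia, was 34.1, 26.6 and 43.9 CPM in wild-type lungs and 24.9, 33.1 and 40.0 CPM in knockout lungs. It had the widest spread of the 10 relative to its mean in both genotypes, and its difference of −0.09 ± 0.23 (SE, adjusted p = 0.93) was well within it; leaving out 1 library at a time gave −0.27 to 0.10.

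Of 9 other epithelial transcription factors, 0 passed in edgeR, DESeq2 or voom. An unadjusted p under 0.05 was found for 1 of the 9, beside 10.7% of all genes. The median log2 fold change of the 9 was −0.19, with 7 of 9 point estimates below 0. Klf5, a factor of lung and gut epithelium, was lower in all 3 knockout lungs, at 102 ± 6.76 (wild type) and 85.0 ± 8.92 CPM (knockout; −0.26, adjusted p = 0.28, and 0.028 with the title prefix as a term). Grhl1 (−0.35) and Ehf (−0.91) were next by p, with edgeR adjusted p of 0.50 and 0.54. The 6 factors known to repress Cdh1 gave 0 calls in edgeR or voom and 0 at an unadjusted p under 0.05, and DESeq2 called 0 of the 5 it gave an adjusted p. Zeb2 stood at 336 ± 17.6 and 371 ± 7.49 CPM (0.14, adjusted p = 0.51), Snai2 at 0.16, Zeb1 at −0.11 and Snai1 at 0.15 on the log2 scale.

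The splicing factors Esrp1 and Esrp2 direct epithelial choices of alternative exons. Esrp1 (ENSMUSG00000040728, mm10 chromosome 4, 11331933 to 11386783, minus strand) was 66.5, 63.0 and 76.1 CPM in wild-type lungs and 77.6, 72.9 and 74.6 CPM in knockout lungs. Esrp2 (ENSMUSG00000084128, mm10 chromosome 8, 106130319 to 106136974, minus strand) was 114, 121 and 110 CPM in wild-type lungs and 132, 116 and 131 CPM in knockout lungs. Both had higher means in the knockout lungs, with overlap: wild type 3 for Esrp1 and wild type 2 for Esrp2 lay among the knockout values. The log2 fold changes were 0.13 ± 0.08 (SE, adjusted p = 0.59) and 0.14 ± 0.07 (adjusted p = 0.52). The ratio of Esrp2 to Esrp1 in CPM was 1.69 ± 0.232 in wild-type and 1.68 ± 0.0863 in knockout lungs (SD, n = 3).

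Gene-level counts do not show which exons were used, so splicing by these factors was not measured. Of 7 genes with exons that ESRP proteins are known to regulate, 0 passed in edgeR. Beside 10.7% of all genes, 1 of the 7 had an unadjusted p under 0.05. DESeq2 called that gene higher, as it did 0.365% of all genes. This was Fgfr2, the receptor for the growth factors that drive lung branching, at 448, 489 and 483 CPM in wild-type lungs and 601, 584 and 620 CPM in knockout lungs. The genotypes did not overlap (log2 fold change 0.35 ± 0.07 SE, edgeR adjusted p = 0.095, DESeq2 adjusted p = 0.00035). Ctnnd1 (−0.10), Enah (−0.11) and Arhgef11 (−0.03) followed by p, at edgeR adjusted p of 0.74 to 0.89.

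Spint2 (ENSMUSG00000074227, mm10 chromosome 7, 29256323 to 29281912, minus strand) encodes a membrane-bound Kunitz inhibitor of serine proteases such as matriptase and prostasin. It was 180, 172 and 197 CPM in wild-type lungs and 171, 187 and 189 CPM in knockout lungs. Its means of 183 ± 13.1 and 183 ± 9.89 CPM (SD, n = 3) were the closest of the 10 (log2 fold change −0.00 ± 0.07 SE, adjusted p = 1.00). Cdh1 and Spint2 kept a ratio of 2.74 ± 0.134 in wild-type and 2.72 ± 0.108 in knockout lungs. Of 9 genes of the membrane proteases, the HGF axis and the related inhibitor Spint1, 0 passed in edgeR or voom. DESeq2 called 0 of the 7 it gave an adjusted p. Beside 10.7% of all genes, 3 of the 9 had an unadjusted p under 0.05. Those were Hgf (7.21 ± 2.41 and 4.47 ± 1.21 CPM), Tmprss2 (60.4 ± 5.22 and 50.9 ± 5.91 CPM) and the HGF receptor gene Met (115 ± 4.65 and 99.5 ± 12.3 CPM), all with lower means in the knockout lungs and edgeR adjusted p of 0.39 to 0.40. Hpn was next at 0.18 (adjusted p = 0.52).

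Levels of different genes were compared as CPM per kilobase of exon. In wild-type lungs the order was Krt19 (157 ± 18.4), Cdh1 (110 ± 4.55), Krt18 (103 ± 12.8), Krt8 (82.8 ± 7.74), Epcam (45.8 ± 3.26), Spint2 (40.2 ± 2.87), Esrp2 (26.5 ± 1.20), Elf3 (15.7 ± 3.90), Esrp1 (10.9 ± 1.08) and Grhl2 (6.52 ± 0.863, SD, n = 3). The neighbours Cdh1 and Krt18 overlapped over the 3 libraries, as did Epcam and Spint2, and Elf3 and Esrp1. The order of the means was unchanged in knockout lungs, but the steps were not. There Krt19 (118 ± 5.36) overlapped with Cdh1 (108 ± 4.58), and Krt8 (63.9 ± 5.26) overlapped with Epcam (59.2 ± 6.76). Reads counted for Krt8-ps, 0.347 times Krt8 in wild-type and 0.353 times in knockout lungs, are left out here. The place of Krt8 in both orders and its overlap with Epcam are therefore uncertain. Krt18, at 75.0 to 88.7 in the knockout lungs, no longer overlapped with Cdh1, at 105 to 114. Epcam, at 53.7 to 66.7, no longer overlapped with Spint2, at 37.6 to 41.6.

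As a gauge of epithelial share, the 10 genes together gave 1663, 1555 and 1762 CPM in wild-type lungs and 1543, 1533 and 1604 CPM in knockout lungs. The ranges overlapped, and the log2 ratio of the means (1660 ± 103 and 1560 ± 38.7 CPM, SD, n = 3) was −0.09, and −0.11 without wild type 1 and knockout 3. It was −0.05 without wild type 3 and −0.13 without wild type 2. Without the keratins, the other 7 genes summed to 1027, 1025 and 1124 CPM in wild-type lungs and 1090, 1081 and 1133 CPM in knockout lungs (log2 ratio 0.06, and 0.09 and −0.02 within the 2 title prefixes), and the geometric mean of all 10 gave −0.06. In wild-type lungs Cdh1 alone gave 501 of the 7-gene sum's mean of 1059 CPM, so that sum leans on 1 gene. Relative to 12 endothelial genes the 10-gene total was 0.559, 0.493 and 0.665 in wild-type lungs and 0.568, 0.604 and 0.593 in knockout lungs. Relative to 8 mesenchymal genes it was 0.251 ± 0.0207 and 0.263 ± 0.0351, with overlap in both cases.

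**Figure D2:**
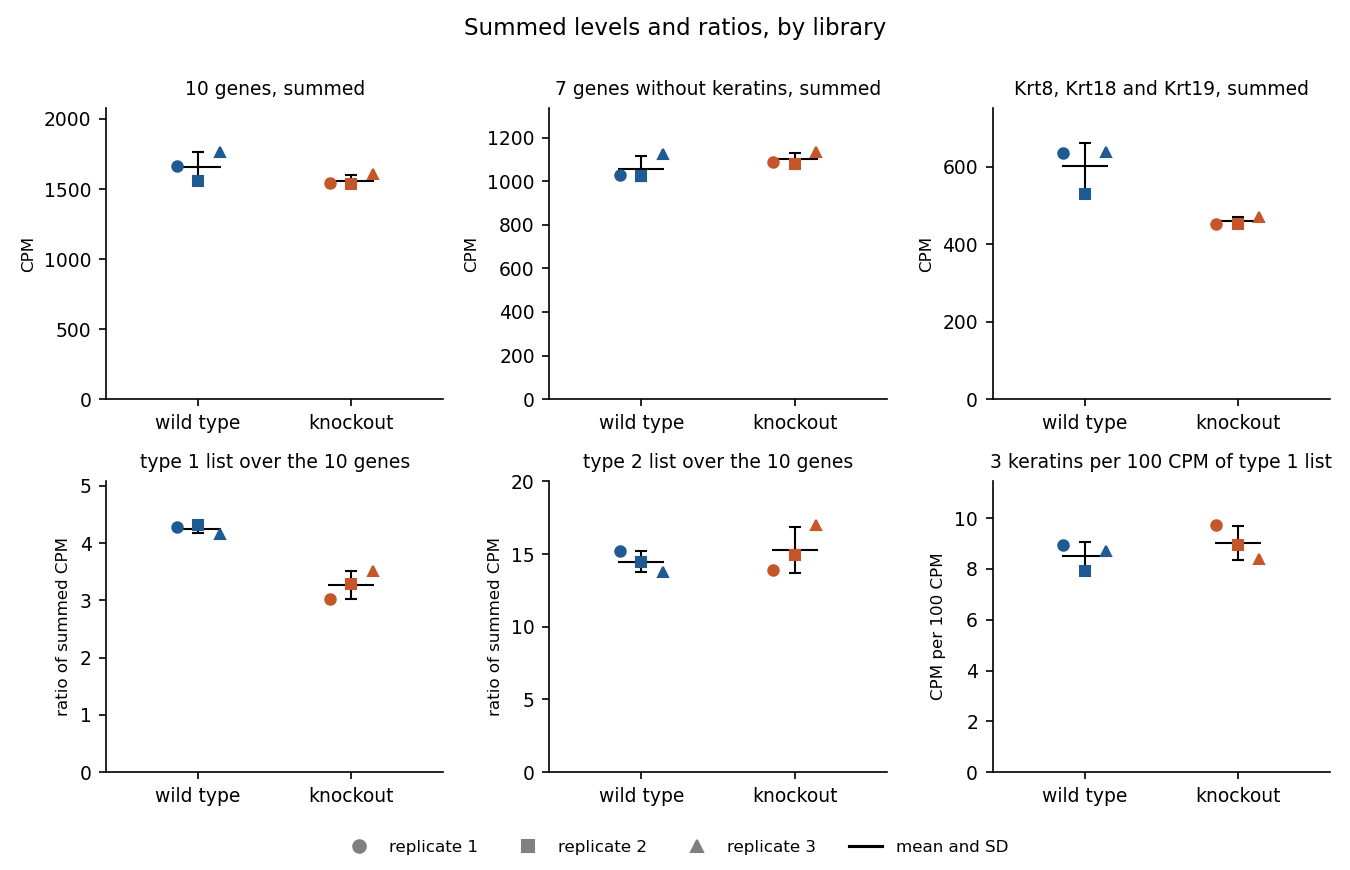
Summed CPM of the 10 genes, of the 7 without keratins and of the 3 keratins (upper row), and the ratios of the type 1 list and the type 2 list to the 10 genes and of the 3 keratins to the type 1 list (lower row), by library with the mean and SD of 3; all axes start at 0. The genotypes part for the keratin sum (530 to 637 against 452 to 471 CPM) and for the type 1 list per 10 genes (4.16 to 4.31 against 3.02 to 3.51), and overlap in the other 4 panels.

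Against this gauge, of 4 lists of epithelial cell types, the type 1 list alone showed no overlap between the genotypes. The size of the drop was not particular to it. Median log2 fold changes were −0.55 for the type 1 list, −0.55 for the ciliated list and −0.57 for the secretory list. The ratios of the ciliated and secretory lists spread more between libraries, relative to their means. The lists were not tested against each other. The type 1 list held 4.28, 4.31 and 4.16 times the 10-gene total in wild-type lungs and 3.02, 3.29 and 3.51 times in knockout lungs, with no overlap and a log2 ratio of −0.38. The ratio was −0.43 without wild type 1 and knockout 3, and −0.51 and −0.29 within the 2 title prefixes. Without the keratins in the denominator it was −0.52, and per Cdh1 alone −0.45. The type 2 list held 15.2, 14.5 and 13.7 times the total in wild-type lungs and 13.93, 14.95 and 16.98 times in knockout lungs. The genotypes overlapped (log2 ratio 0.08, and −0.07 without the keratins). In wild-type lungs Sftpc alone gave 12347 of the list's mean of 24000 CPM, so the sum leans on 1 gene. Of the 12 type 2 genes, 3 were higher and 3 were lower in all 3 knockout lungs, beside 8.6% and 8.45% of all genes. Per 10000 CPM of the type 2 list, Epcam held 39.0, 42.0 and 44.8 CPM in wild-type lungs and 68.2, 54.8 and 43.2 CPM in knockout lungs, where knockout 3 lay among the wild types. The ciliated and secretory lists of the airways, at −0.45 and −0.36 per member total, overlapped between the genotypes. The ciliated value was −0.24 without wild type 3 and −0.27 without knockout 1. The secretory value was −0.22 without knockout 1 and −0.56 without knockout 2. Of all genes, 10.7% were under 0.05 before adjustment, and DESeq2 passed 0.365% as higher and 1.76% as lower. Gene by gene, edgeR called 3 of 13 type 1 genes lower (12 under 0.05 before adjustment, 12 lower in DESeq2). It called 0 of 12 type 2 genes (4 under 0.05 before adjustment, 2 higher in DESeq2). Of 9 ciliated genes it called 0 (3 before adjustment, 0 in DESeq2). The fit with the prefix called all 9 lower, 11 of the 13 type 1 genes and 2 of the 7 secretory genes, beside 2.54% of all genes. Of 7 secretory genes edgeR called 0 (2 before adjustment, 1 lower in DESeq2). It also called 0 of 12 endothelial genes (3 before adjustment, 1 lower in DESeq2), 0 of 8 mesenchymal genes (0 before adjustment, 0 in DESeq2) and 0 of 5 squamous genes (0 before adjustment; DESeq2 gave an adjusted p for 2 of the 5 and called 0).

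A wider list held 41 other genes shared by many epithelia, among them claudins, junction proteins and Foxa factors. Its median log2 fold change was 0.01, with 21 point estimates above 0 and 20 below, and 0 of 41 passed in edgeR or voom. Before adjustment 14 of 41 were under 0.05, beside 10.7% of all genes. In DESeq2 1 of 41 was higher and 5 were lower, beside 0.365% and 1.76% of all genes. By p the first were Sh2d4a (56.2 ± 3.37 and 43.1 ± 2.12 CPM, log2 fold change −0.38, edgeR adjusted p = 0.081), Krt7 (above), Cdh3, which encodes P-cadherin (18.0 ± 1.26 and 23.8 ± 1.42 CPM, 0.40, adjusted p = 0.12), and F11r, the junctional adhesion molecule A gene (199 ± 7.39 and 169 ± 9.21 CPM, −0.24, adjusted p = 0.19). Libraries did not overlap in 3 of the 41 genes, higher in the knockout lungs (8.6% of all genes), and in 7 of the 41, lower (8.45% of all genes). The plot of fold changes by list shows both epithelial lists straddling 0.

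**Figure D3:**
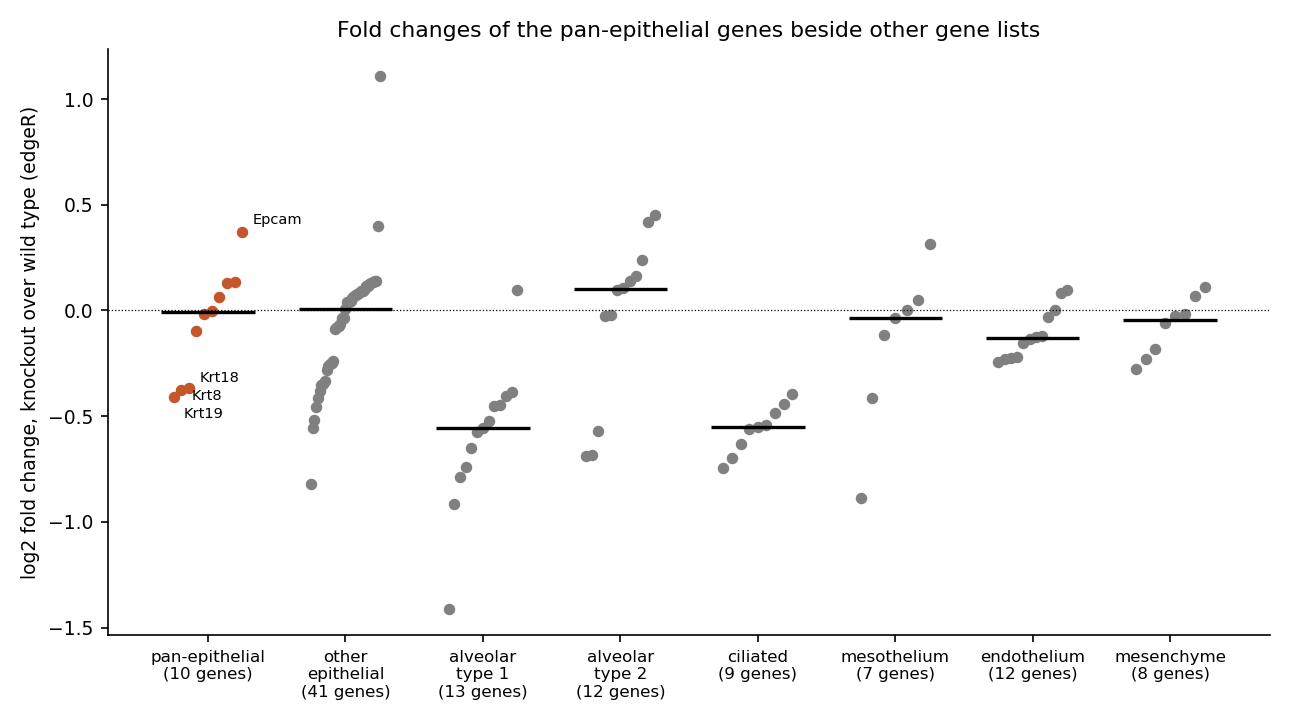
Log2 fold change, knockout over wild type, of each tested gene (points, sorted within a list) in the 10 pan-epithelial genes and 7 other lists, with black lines at the medians. The 10 genes and the 41 other epithelial genes have medians near 0 (−0.01 and 0.01). The type 1 and ciliated lists each have −0.55. Epcam and the 3 keratins are named at the ends of the 10.

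The spread between samples was larger than counting error. The 10 genes took 31337 to 37464 reads per library, 0.154% to 0.174% of all, and the counting error in the library with the fewest reads of a gene ran from 1.0% for Cdh1 to 4.1% for Elf3. Over 16 alternative fits, Epcam ran from 0.27 to 0.43, Krt8 from −0.46 to −0.32, Krt18 from −0.47 to −0.27 and Krt19 from −0.50 to −0.34. The genotypes did not overlap for these 4 genes, so leaving libraries out could hardly have turned their direction. The remaining fits used the same 6 libraries. The kept direction is therefore no separate evidence. Esrp1 (0.07 to 0.21) and Esrp2 (0.10 to 0.20) also stayed above 0, while Cdh1, Elf3, Grhl2 and Spint2 crossed 0 in at least 1.

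**Figure D4:**
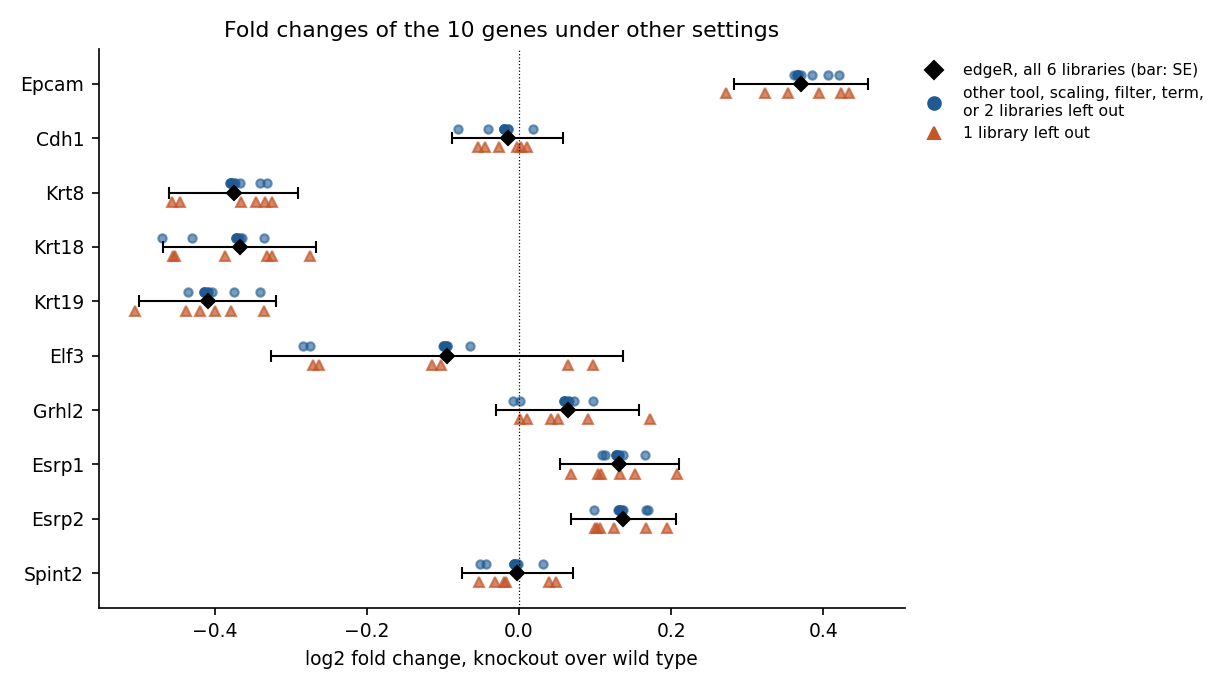
Log2 fold change, knockout over wild type, of each of the 10 genes: black diamonds with bars are the edgeR fit to all 6 libraries with its SE, blue circles other tools, scalings, filters and terms or 2 libraries left out, and orange triangles fits with 1 library left out. Epcam stays right of 0, and Krt8, Krt18 and Krt19 stay left of 0, in all of them.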

How the data were processed

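RNA was measured by strand-specific, poly(A)-selected, 75 bp single-read sequencing in 6 whole lungs. Per the submitters' processing notes, bcl2fastq 2.19.1, GSNAP 2019-06-10, featureCounts 1.6.3 and DESeq2 1.24.0 were used on mm10. Per the file headers, the authors' raw count table comes from featureCounts with strand setting 2 (reverse) and a minimum mapping quality of 1, which can remove reads of near-identical copies. The deposited normalized signal is counts divided by 1 size factor per library; multiplied back, all 24521 genes matched the raw counts to 0.1 read in all 6 libraries, so a count test on recovered reads is the test on the counts, with 70 genes called. Raw counts were used for all tests. The 92 spike-in names, with 1 read in all, were left out.

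Of 34615 genes with a read, filterByExpr kept 19042. edgeR 4.0.16 (R 4.3.3) fitted genotype alone with TMM factors and a robust quasi-likelihood, with adjustment by Benjamini and Hochberg and 0.05 as the threshold; unless another tool is named, an adjusted p is from this fit. SE is the absolute log2 fold change over the square root of F. Means ± SD are of CPM, n = 3. Alternatives were DESeq2 1.42.0, limma 3.58.1 (voom, and log2 of the normalized values with a pseudocount of 1), other scalings and filters (none, or 1 CPM in 3 libraries), listed erythroid genes left out, the title prefix as a term, and left-out libraries. The prefix's meaning is not stated. No 2 libraries of 1 genotype were copies: chi-square over its degrees of freedom was 8.49 to 21.12 between them. Pairs across the genotypes were not checked in this way. Tests were tried on simulated data. Named genes are Kmt2c, the 10 members and up to 4 genes of lowest p in each list described; some named by this rule are not reported here, and Krt8-ps, Xist and the squamous and liver genes were named after their values were seen. The members and lists were chosen with earlier results of these data known, so no list was tested as a set. Cell type lists: alveolar type 1 and 2, ciliated, secretory, mesothelium, endothelium, mesenchyme and squamous are described with the results; edgeR called 0 of 5 neuroendocrine, 0 of 6 leukocyte, 0 of 7 red cell and 0 of 4 other-organ genes tested (1, 2, 0 and 0 under 0.05 before adjustment). DESeq2 gave 4, 6, 7 and 3 of them an adjusted p and called 0. The share of all genes under 0.05 before adjustment was 10.7%.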

Additional observations from a re-analysis of the deposited data

How the results depend on the processing

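All 6 libraries and edgeR gave 0 of 10 members and 70 genes in all. DESeq2 gave 4 members and 349 genes, edgeR without a filter 4 and 443, the title prefix as a term 2 and 625, limma voom 0 and 8, and limma on the deposited normalized values 0 and 17. Leaving out 1 library gave 0 to 41 genes and leaving out wild type 1 and knockout 3 gave 1 (an alternative chosen after seeing the data), each with 0 members; fewer samples were fitted there. The cause of the other differences was not tested. Small differences changed sign: Cdh1 (−0.02) was 0.018 with library size only and −0.054 to 0.011 with 1 library left out, Spint2 (−0.00) was 0.031 and −0.052 to 0.049, Elf3 (−0.09) was −0.27 to 0.10, and Grhl2 (0.06) was −0.008 without wild type 1 and knockout 3. Without the 3 keratins, the summed members' log2 ratio went from −0.09 to 0.056, and that of the type 1 list per member total from −0.38 to −0.523. The labels give no replicate numbers that pair samples across genotypes, so the title prefix, which both genotypes share, was the only blocking term fitted. Counting error of the members was 4.1% or less per library, so the number of samples, 3 per genotype, limits the precision more than depth does. With whole lungs, cell numbers were not measured.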

Other observations

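Cldn6, which encodes a claudin of embryonic epithelia, was chosen for mention after its values were seen. It was 8.31, 10.98 and 10.44 CPM in wild-type lungs and 30.8, 18.6 and 14.7 CPM in knockout lungs, with no overlap and a log2 fold change of 1.11 ± 0.29 (SE, edgeR adjusted p = 0.23, DESeq2 adjusted p = 0.00032). Among the 41 other epithelial genes it was the 1 that DESeq2 called higher. Knockout 1 was the highest of the 6 libraries for both Cldn6 and Epcam.

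The reads of squamous genes in wild type 1 covered several genes of stratified epithelium, with 56.1 CPM of Krt5, 20.4 CPM of Dsg3 and 16.8 CPM of Krt6a, against at most 3.83, 0.05 and 0.10 CPM in the other 5 libraries. Knockout 3, with 128 CPM of Krt1, had 0.84 CPM of Krt13 and 0.56 CPM of Krt4. Knockout 2 held the most Alb, a liver gene, at 41.1 CPM, where the other 5 libraries held 3.85 to 15.9 CPM.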
